A study of Arabidopsis thaliana with 4 samples.

Results

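The 10 loci described here make and export the wax of the Arabidopsis cuticle: the elongation genes KCS1, KCS6, CER2 and CER10, the alkane genes CER1 and CER3, the alcohol and ester genes CER4 and WSD1, and the transporter genes ABCG11 and ABCG12. They were listed by locus identifier as genes of known role in wax synthesis and export, out of 32678 loci in the table. A locus was measured only where the table held 1 transcript model for it. That left 8 of the 10, out of 26516 nuclear loci with 1 model, and KCS6 and CER1 could not be measured.

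RNA was sequenced from 4 rosette cores of Arabidopsis thaliana, accession Col-0, which form 1 wild-type group with no treatment and no contrast. A core was the central 1.5 to 2 cm of the rosette of a plant aged 31 days, raised at 22 °C in long days (16 h light, intensity 100 µE m-2 s-1) after 1 to 2 days at 4 °C. The design therefore allows a description of levels and of the spread between libraries, here called core 1 to core 4, whose numbers carry no order. The labels do not state that the cores were taken from different plants, so each p-value covers no more than the differences among these 4 samples, and those may be technical.

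Library totals ran from 5639486 to 7692788 counts, and a count of 0 allows a level of up to 0.418 to 0.562 CPM (3 counts, counting error only). CPM are counts per 1000000 counts of the nuclear loci with 1 model, after TMM scaling between libraries. The rosette label was checked against marker genes. The photosynthesis gene LHCB1.3 stood at 19327 to 28460 CPM, the epidermal gene PDF1 at 678 to 1139 CPM and the shoot meristem gene STM at 97.0 to 315 CPM. LHCB6 of the light-harvesting complex stood at 2028 to 4031 CPM. The guard cell genes KAT1 and FAMA stood at 7.11 to 12.4 and 13.6 to 26.1 CPM, the phloem gene SUC2 at 56.6 to 102 CPM and the xylem gene XCP2 at 63.8 to 91.1 CPM. The root markers MYB36, CASP1, RHD6 and EXPA7 summed to only 0.621 to 2.22 CPM, with 1 count of RHD6 in all and 0 counts of EXPA7. The 2 meristem markers summed to 603 CPM in core 2 and to 195 to 345 CPM in the others. The 4 epidermal markers summed to 3695, 3259, 3442 and 3291 CPM in cores 1 to 4. In core 2 PDF1, PDF2 and KCS10 were at their lowest, and LTP1, the most abundant of the 4, at its highest.

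Cuticular wax is made by epidermal cells from fatty acids, which the fatty acid elongase complex of the endoplasmic reticulum lengthens by repeated cycles of condensation, reduction, dehydration and reduction. The very-long-chain products then follow either the alkane-forming pathway, whose products dominate leaf and stem wax, or the alcohol-forming pathway, which yields primary alcohols and wax esters. ABC transporters at the plasma membrane carry the products out of the cell, and lipid transfer proteins act at the cell surface.

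The wax loci were well expressed in the rosette core. The 8 measured loci lay at a median of 45.2 CPM per kb of exon, against 4.99 CPM per kb over all 20912 nuclear protein-coding loci with 1 model, and the lowest of them, CER4, stood above 71.2% of those loci. The 20912 loci include 6538 that were under 1 CPM in every core, so the comparison is partly with genes that were hardly expressed. Their summed level was 719 CPM in core 1, 814 CPM in core 2, 986 CPM in core 3 and 901 CPM in core 4. Core 1 was thus the lowest and core 3 the highest for the sum. Because the samples are bulk tissue, a lower value from fewer epidermal cells and a lower value from less RNA per cell cannot be told apart.

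**Figure D1:**
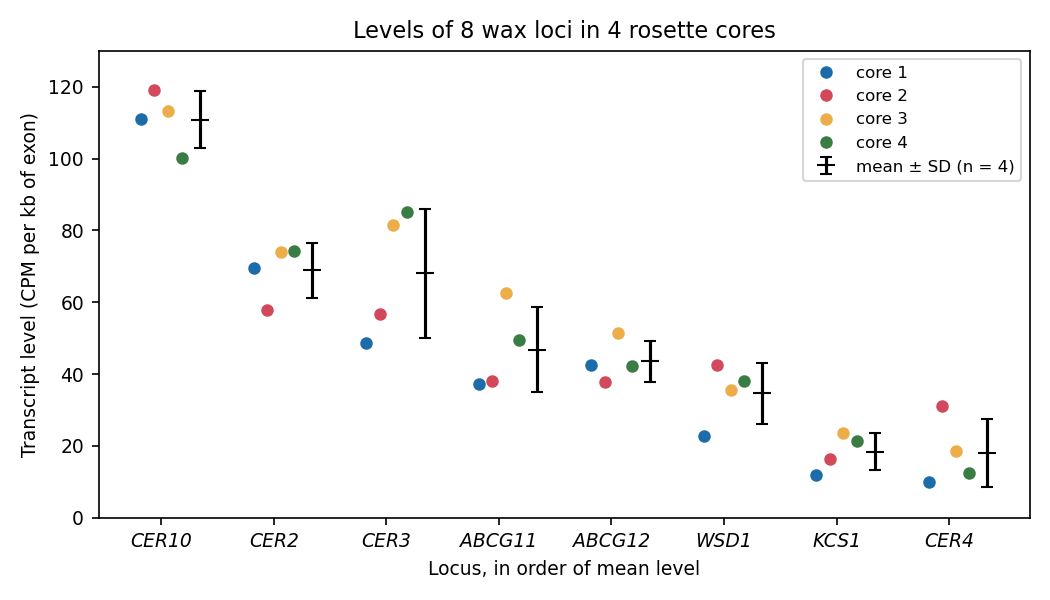
Level of the 8 measured wax loci in CPM per kb of exon on a linear axis from 0, with 1 point per core and, in black, the mean ± SD over the 4 cores. CER10 lies highest at a mean of 111 CPM per kb, CER2 and CER3 follow at 68.9 and 68.0 CPM per kb, and KCS1 and CER4 lie lowest at 18.4 and 18.0 CPM per kb.

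Per kb of exon, the elongation gene CER10 was the most abundant of the 8 wax loci. It encodes the enoyl-CoA reductase that closes each elongation cycle. CER10 (AT3G55360; TAIR10.1, chromosome 3, 20520930 to 20523098, minus strand) measured 159, 170.3, 162 and 143 CPM in cores 1 to 4, or 111 ± 7.92 CPM per kb (SD, n = 4). It ranked first per kb in each of the 4 cores. With no length term CER3 had the higher mean, 176 CPM against 159 CPM, and lay above CER10 in cores 3 and 4. The highest core of CER10 was 1.19 times its lowest, the narrowest range of the 8.

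CER2, a protein of the BAHD acyltransferase family that is needed together with a ketoacyl-CoA synthase for the last rounds of elongation, came next. CER2 (AT4G24510; chromosome 4, 12660687 to 12662656, plus strand) measured 113, 94.2, 120.2 and 121 CPM, with a mean of 68.9 ± 7.60 CPM per kb (SD, n = 4). Cores 1, 3 and 4 lay close together and core 2 was lowest. Opposite-strand genes cover 25.3% of the CER2 exon bases. The library kit keeps strand, but the strand setting of the counting is not given, so reads of the overlap may be shared. The partner in the table, AT4G24520, has 2 models and 34 to 46 counts per core. Counts of loci with several models are no measure of expression here, so the level of this partner is not known.

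KCS1 was among the low wax loci. It is a ketoacyl-CoA synthase, the class of enzyme that catalyses the condensation step and sets the chain length. KCS1 (AT1G01120; chromosome 1, 57164 to 59215, minus strand) measured 24.7, 33.7, 48.4 and 43.9 CPM, or 18.4 ± 5.18 CPM per kb (SD, n = 4). Core 3 was 1.96 times core 1.

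KCS6, the ketoacyl-CoA synthase best known for wax in shoots, has 2 models in the table and was not measured. Its first model (AT1G68530; chromosome 1, 25712414 to 25715024, minus strand) had 0 counts in every core, and its second had 5, 4, 1 and 3 counts. The models have 2252 and 2220 exon bases, of which 391 and 359 bases belong to no other model of the locus, so most reads of KCS6 would fall on bases that both models share. Over the whole table the protein-coding loci with 2 models had a median mean count of 0.5, against 55.5 for those with 1 model. The 13 counts of KCS6 are therefore no measure of its expression.

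CER3 was measured and its partner CER1 was not. The 2 proteins act together to turn very-long-chain acyl-CoAs into alkanes. CER3 (AT5G57800; chromosome 5, 23420184 to 23424117, plus strand) measured 126, 147, 211 and 220.4 CPM, or 68.0 ± 18.1 CPM per kb (SD, n = 4). Cores 3 and 4 lay above cores 1 and 2, and the highest was 1.75 times the lowest. CER1 (AT1G02205; chromosome 1, 418416 to 422579, plus strand) has 3 models, with 3 counts in all over the 4 cores, and falls under the same limit as KCS6. AT1G02190, a locus of the same family, also has several models, so no ratio of CER3 to a partner was available.

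Within the alcohol-forming pathway, RNA of the ester step stood above RNA of the alcohol step per kb in each core. CER4 encodes the fatty acyl-CoA reductase that makes primary alcohols, and WSD1 the wax synthase that joins these alcohols to fatty acids. CER4 (AT4G33790; chromosome 4, 16204096 to 16207956, minus strand) measured 19.4, 60.7, 36.6 and 24.4 CPM, or 18.0 ± 9.42 CPM per kb (SD, n = 4). Core 2 was the highest and 3.13 times core 1, the widest range of the 8 wax loci. WSD1 (AT5G37300; chromosome 5, 14767426 to 14770396, plus strand) measured 46.9, 87.6, 73.1 and 78.5 CPM, or 34.7 ± 8.49 CPM per kb (SD, n = 4). Core 2 was again the highest and core 1 the lowest.

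The sequence before these 2 genes is shown because they were highest in the same core and lowest in the same core. That is not particular to CER4 and WSD1, since KCS1 and ABCG11 were both highest in core 3 and lowest in core 1. Each stretch is the 300 bases upstream of the RefSeq gene start, on the strand of the gene, in TAIR10.1, and holds no untranslated region of the gene itself. The window of CER4 is chr4:16207957-16208256, minus strand, and that of WSD1 is chr5:14767126-14767425, plus strand.
CER4: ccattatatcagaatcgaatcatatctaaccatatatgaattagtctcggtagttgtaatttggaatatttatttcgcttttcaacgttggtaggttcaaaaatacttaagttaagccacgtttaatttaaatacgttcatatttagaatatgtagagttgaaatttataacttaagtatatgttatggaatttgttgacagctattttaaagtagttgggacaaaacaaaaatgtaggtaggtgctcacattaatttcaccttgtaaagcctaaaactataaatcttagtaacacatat
WSD1: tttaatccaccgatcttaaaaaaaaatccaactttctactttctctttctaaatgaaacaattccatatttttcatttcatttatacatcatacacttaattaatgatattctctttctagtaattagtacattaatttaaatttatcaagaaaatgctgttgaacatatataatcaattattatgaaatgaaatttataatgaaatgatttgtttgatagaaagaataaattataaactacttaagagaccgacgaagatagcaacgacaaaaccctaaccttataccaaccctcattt
The motifs searched, on both strands, were the L1 box of epidermal genes (TAAATGCA or TAAATGTA), a MYB site (TAACTA or TAACTG) and the GCC box (GCCGCC). None of these letters is in either window, which is why they hold no capitals.

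The mean levels of the transporter genes per kb differed by less than their SD. ABCG11 and ABCG12 encode ABC transporters of the plasma membrane that are needed for wax export, and ABCG11 acts in cutin export as well. ABCG11 (AT1G17840; chromosome 1, 6142402 to 6146521, plus strand) measured 119, 122, 200.4 and 159 CPM, or 46.8 ± 11.9 CPM per kb (SD, n = 4). Core 3 was 1.68 times core 1. Opposite-strand genes cover 32.0% of the ABCG11 exon bases. The partner in the table, AT1G17850, has 2 models and 82 to 119 counts per core, highest in core 3 as ABCG11 was. With 2 models, its counts are no measure of its expression. ABCG12 (AT1G51500; chromosome 1, 19097712 to 19101265, minus strand) measured 111, 98.4, 135 and 111 CPM, or 43.5 ± 5.80 CPM per kb (SD, n = 4). It was also highest in core 3, at 1.37 times its lowest core.

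The upstream sequences of the pair are shown because they differed in the motifs found. The window of ABCG11 is chr1:6142102-6142401, plus strand, and that of ABCG12 is chr1:19101266-19101565, minus strand, and capitals mark the motif matches.
ABCG11: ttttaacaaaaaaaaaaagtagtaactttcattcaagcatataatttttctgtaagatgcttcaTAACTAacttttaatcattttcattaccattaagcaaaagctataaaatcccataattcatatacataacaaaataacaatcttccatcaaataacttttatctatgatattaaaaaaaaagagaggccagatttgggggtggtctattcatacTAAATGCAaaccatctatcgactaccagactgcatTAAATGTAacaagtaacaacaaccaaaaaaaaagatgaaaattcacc
ABCG12: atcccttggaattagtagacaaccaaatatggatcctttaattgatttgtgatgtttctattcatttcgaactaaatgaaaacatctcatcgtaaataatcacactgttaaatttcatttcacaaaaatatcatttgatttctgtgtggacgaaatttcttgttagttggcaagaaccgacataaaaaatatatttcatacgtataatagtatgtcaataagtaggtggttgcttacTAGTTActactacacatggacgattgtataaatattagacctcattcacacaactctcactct
The ABCG11 window holds the C form of the L1 box beginning 82 bases and the T form beginning 47 bases upstream of the gene start, and a MYB site beginning 236 bases upstream. The ABCG12 window holds a MYB site on the other strand, beginning 63 bases upstream. Among the 10 wax loci only ABCG11 has an L1 box, against 5.53% of all 26711 promoters of the same length. A MYB site lies in 5 of the 10 windows, those of ABCG11, ABCG12, CER10, CER2 and KCS6, against 31.6% of all promoters. The CER2 window overlaps another locus, AT4G24500. The GCC box lies in none of the 10 and in 2.24% of all. A match describes letters and shows no binding.

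Within-library ratios place the loci against each other without the scaling between libraries. Of 10 pairs set by role, 4 could be measured, since KCS6, CER1 or AT1G02190 enters the other 6. With 7 pairs of neighbours in the order of levels there were 10 distinct pairs, and the exact two-sided sign-flip permutation test cannot go below p = 0.13 with 4 libraries, so none could pass a threshold of 0.05. CER3 was above CER4 in 4 of 4 cores, by 4.03-fold per kb (mean log2 ratio 2.01, SD 0.81; exact permutation p = 0.13). CER4 was below WSD1 in 4 of 4 cores (mean log2 ratio -1.05, SD 0.49; exact permutation p = 0.13). CER10 was above CER2 in 4 of 4 cores, by 1.61-fold per kb (exact permutation p = 0.13). Opposite-strand genes cover 25.3% of the CER2 and 32.0% of the ABCG11 exon bases. Ratios with these loci, here and below, may therefore shift with the strand setting of the counting, which is not given.

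The middle and the lowest places of the order could not be told apart. The mean log2 ratio of CER2 over CER3 per kb was 0.05 (SD 0.32), with CER2 the higher in 2 of 4 cores (exact permutation p = 0.875), and it was -0.10 without core 1. With no length term it was -0.62, so the place of this pair rests on the exon lengths. ABCG11 over ABCG12 had a mean log2 ratio of 0.08 (SD 0.22), positive in 3 of 4 cores (exact permutation p = 0.375). KCS1 over CER4 had a mean log2 ratio of 0.12 (SD 0.72), positive in 3 of 4 cores (exact permutation p = 0.75), and -0.10 without core 4. Per kb, with all 4 cores, each of these differences was smaller than its SD over the cores. WSD1 was above KCS1 in 4 of 4 cores, by 1.90-fold per kb, and CER3 above ABCG11 in 4 of 4 cores, by 1.45-fold per kb (exact permutation p = 0.13 for each). The place of ABCG11 below CER3 is subject to the opposite-strand overlap of ABCG11. ABCG12 over WSD1 was positive in 3 of 4 cores, with a mean log2 ratio of 0.35 (SD 0.47; exact permutation p = 0.375). With the length of the first model the mean was 0.066, so its size depends on the exon length used.

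**Figure D2:**
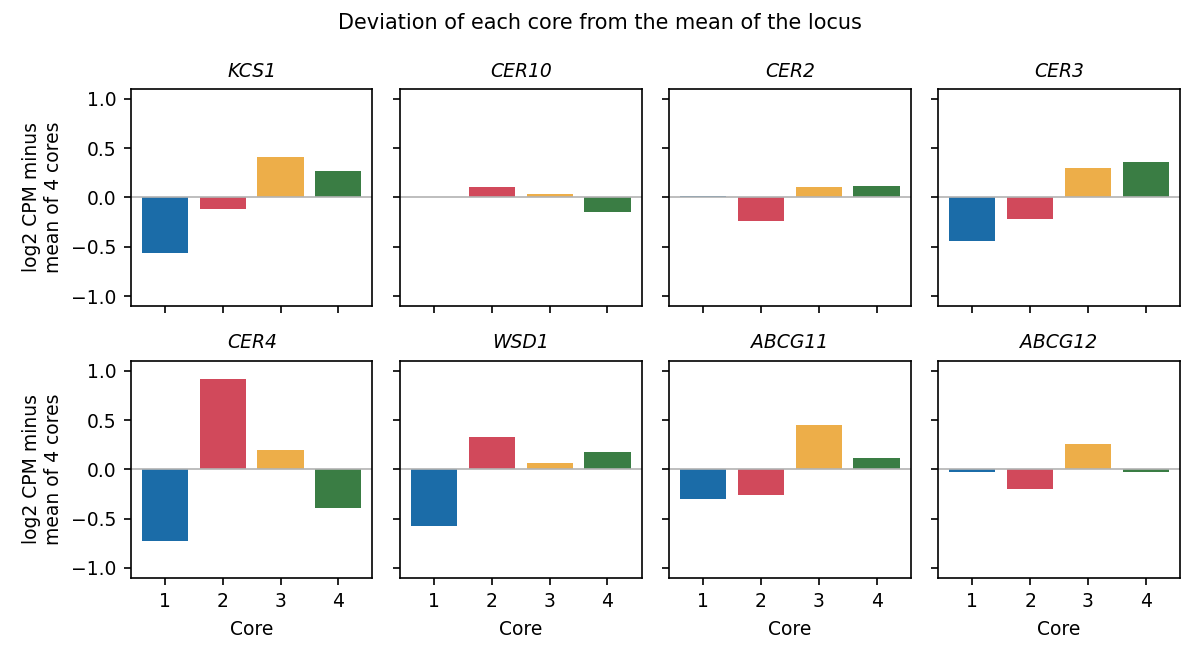
Deviation of each measured wax locus from its own mean in each core, as log2 CPM, with 1 bar per core. CER10 keeps within -0.14 to 0.11, while CER4 runs from -0.72 in core 1 to 0.92 in core 2.

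The cores differed in the wax loci by more than counting error. A chi-square test of Poisson heterogeneity, adjusted by Benjamini-Hochberg over 12771 loci that passed a filter on low counts, called 8 of the 8 wax loci. The same test called 64.0% of all 12771 loci and 78.4% of the 4709 loci within the mean CPM range of the wax loci, since a well-counted locus is more easily called. The adjusted p of the chi-square test ran from 5.72e-51 for CER3 to 0.0055 for CER10. The calls of 3 loci each depended on 1 core. CER10 had an adjusted chi-square p of 0.288 without core 4, CER2 had 0.536 without core 2 and ABCG12 had 0.0663 without core 3.

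Set against loci of like level, no wax locus was called. edgeR's quasi-likelihood fit with a one-sided F test called 0% of the 12771 loci and 0 of the 8 wax loci at an adjusted p of 0.05. At an unadjusted p under 0.05 it counted 661 of all loci (5.18%) and 1 wax locus. That locus was CER4, with an unadjusted p of 0.0170, an adjusted p of 0.917 in edgeR and a quasi-dispersion 10.9 times the trend. With no filter on low counts the same edgeR test called CER4 (adjusted p = 0.0244) and 431 loci in all. These calls rest on a choice of prior degrees of freedom made after a first run. With locus-specific ones and no filter, the test called 0 loci. With the filter kept, the other alternatives for this test called 0 loci, and the adjusted p of CER4 ran from 0.655 to 0.976. The other 7 wax loci had quasi-dispersions of 0.251 times the trend for CER10 to 3.79 times for KCS1. The median SD of log2 CPM over the cores was 0.37 for the 8 wax loci and 0.240 for all protein-coding loci that were tested.

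The wax loci did not share 1 pattern over the cores. KCS1, CER3 and ABCG11 were low in cores 1 and 2 and high in cores 3 and 4, and differed from each other by a root mean square of 0.11 to 0.17 in centred log2 CPM. CER2 and ABCG12, both lowest in core 2, differed by 0.11. CER4 was nearest to WSD1, at 0.42, and farthest from CER2, at 0.74. These values describe 4 libraries that share their depth and scaling, and carry no test.

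The 5 loci of the whole table most like CER4 over the 4 cores had root mean square differences of 0.17 to 0.22. The nearest were PLDALPHA2 (AT1G52570), a phospholipase D, with 1.81, 5.18, 3.42 and 2.81 CPM, and AT5G38010, a UDP-glycosyltransferase, with 30.7, 70.7, 48.3 and 29.1 CPM, both at 0.17. SAUR26 (AT3G03850) followed at 0.19, then the acid phosphatase AT4G29270 at 0.20, with 11.2, 25.9, 14.6 and 11.1 CPM. The last, AT3G05932, shares 27.7% of its exon bases with an opposite-strand gene. All 5 were highest in core 2, the measure by which they were found.

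Some markers of other tissues were also highest in core 2, where CER4 and WSD1 were highest, and others were not. The photosynthesis genes LHCB1.3 and LHCB6 were lowest in core 2, at 19327 and 2028 CPM. SUC2 and KAT1 were highest in core 3, and XCP2 and FAMA in core 1. The meristem gene STM measured 193, 315, 97.0 and 162 CPM and KNAT1 152, 287, 98.4 and 108 CPM in cores 1 to 4. Of 7 suberin genes 6 had 1 model and all 6 were highest in core 2, 4 of them at low counts. Over all tested loci core 2 was the highest for 27.4%. Only 2 of the 6, ABCG20 and ABCG2, passed the filter on low counts, and ABCG20 was not called beyond counting noise (adjusted chi-square p = 0.117). CYP86A1, a fatty acid hydroxylase of root suberin, had 59, 96, 1 and 14 counts. GPAT5, an acyltransferase of suberin, had 17, 27, 1 and 9 counts, CYP86B1 had 21, 29, 2 and 5, and ABCG6 had 5, 22, 1 and 3. These genes were lowest in core 3, where CER4 had its second highest value, so the patterns differ outside core 2. The transporter genes ABCG20 and ABCG2 stood at 21.5 ± 2.75 and 13.3 ± 2.97 CPM (SD, n = 4), and opposite-strand genes cover 95.3% of ABCG2. The root marker sum was highest in core 2, at 2.22 CPM, but rests on few counts. MYB36 had 8, 12, 2 and 3 counts and CASP1 1, 3, 1 and 1 in cores 1 to 4, and no root marker passed the filter. The part of these tissues in the CER4 values was not tested.

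**Figure D3:**
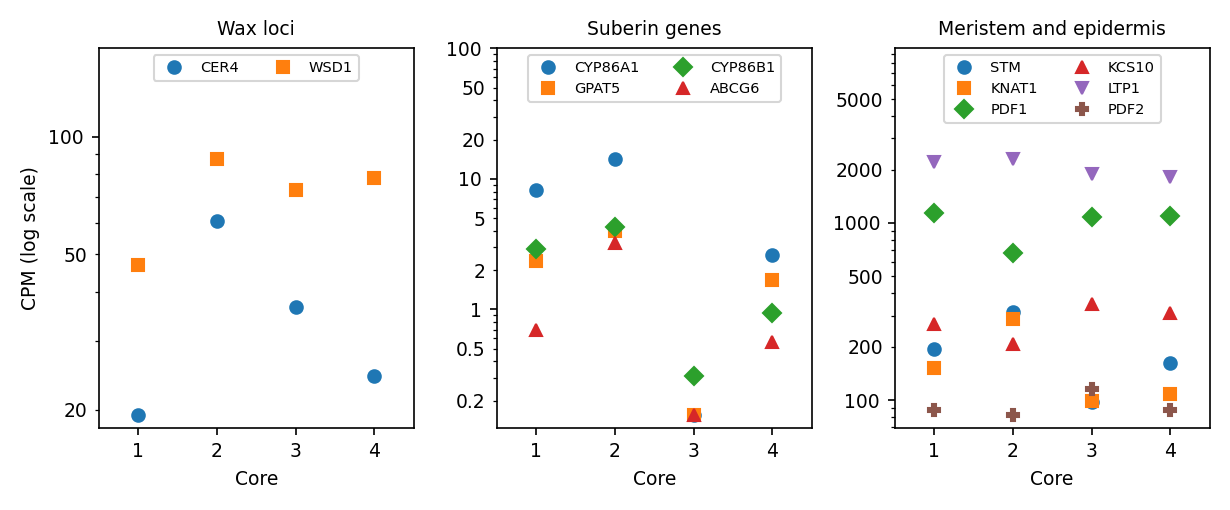
CPM in each core on log axes for CER4 and WSD1, for 4 suberin genes and for 6 marker genes. CER4, WSD1, the suberin genes, the meristem genes STM and KNAT1 and the epidermal gene LTP1 are highest in core 2, where the epidermal genes PDF1, KCS10 and PDF2 are lowest.

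Epidermal markers gave different pictures of the same sum. PDF1, a gene of the outer cell layer, measured 1139, 678, 1085 and 1087 CPM, and the homeobox gene PDF2 measured 87.6, 82.3, 115 and 87.5 CPM. LTP1, a lipid transfer protein gene, ran the other way from PDF1 in core 2, with 2199, 2292, 1893 and 1807 CPM. The summed CPM of the 8 wax loci was 0.632, 1.2, 0.909 and 0.828 times that of PDF1, a coefficient of variation of 26.4%. Relative to PDF2 the sum was 8.21, 9.90, 8.57 and 10.3 times, a coefficient of variation of 10.9%. Against LTP1 it was 0.327, 0.355, 0.521 and 0.498 times, and against KCS10 2.66, 3.94, 2.83 and 2.92 times, with coefficients of variation of 23.1% and 18.7%. Core 1 was the lowest against each of the 4, while the highest was core 2 against PDF1 and KCS10, core 3 against LTP1 and core 4 against PDF2. Which wax locus varied least relative to a marker depended on the marker: CER2 against PDF1 (14.7%) and KCS10 (11.7%), ABCG12 against PDF2 (4.02%) and CER10 against LTP1 (7.63%). CER4 varied most against each of the 4, by 44.8% to 81.8%. The part of the epidermal share in these values was not tested.

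Several ketoacyl-CoA synthase genes outside the wax set exceeded KCS1. Of 19 other KCS loci 18 had 1 model, and 14 were at 1 CPM or more in every core. Of 13 that passed the filter 10 were called beyond counting noise by the chi-square test, against 64.0% of all tested loci. KCS10, which acts in the epidermis and is needed to keep organs separate, was the most abundant at 126 CPM per kb, with 284 ± 60.5 CPM (SD, n = 4). KCS8 followed at 85.5 CPM per kb, and KCS5, a close relative of KCS6, stood at 54.5 CPM per kb with 106, 55.5, 163 and 134 CPM. KCS1 stood at 18.4 CPM per kb, below each of these and near the median of the list, 16.8 CPM per kb. At the low end KCS7 measured 0.204 ± 0.114 CPM (SD, n = 4), under the limit that 0 counts allow, and KCS14 had 0 counts in every core.

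Other enzymes and carriers of the wax pathway spanned a wide range. Of 14 loci 8 had 1 model, all 8 were at 1 CPM or more in every core, and the median of the list was 35.9 CPM per kb. Of these, 5 of 8 were called beyond counting noise, against 64.0% of all tested loci. CB5E, a cytochrome b5, was the highest at 464 ± 14.0 CPM per kb (SD, n = 4), and LTPG1, a lipid transfer protein anchored at the cell surface, had 384 CPM per kb. KCR1, the ketoacyl-CoA reductase of the elongase, stood at 61.6 CPM per kb, and its paralog KCR2 at 7.94 CPM per kb. CER26, a relative of CER2, measured 97.8, 55.3, 112 and 98.8 CPM, and CER2 was above it per kb in 4 of 4 cores, by 1.60-fold (exact permutation p = 0.13). CER26-LIKE stood at 8.98 CPM per kb. ABCG13, which lies in the same ABCG family as ABCG12, measured 29.4, 19.8, 46.1 and 38.8 CPM.

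The other fatty acyl reductases were mostly low, and the other wax ester synthases were spread over a range below WSD1. Of 7 other fatty acyl reductase loci 6 had 1 model, and FAR1 alone was at 1 CPM or more in every core, with 38.2, 28.1, 43.3 and 40.7 CPM. FAR1 was above CER4 per kb in 3 of 4 cores, with 16.8, 12.4, 19.1 and 17.9 CPM per kb against 9.91, 31.0, 18.7 and 12.5 CPM per kb in cores 1 to 4. The mean of CER4 was the higher with all cores (18.0 against 16.6 CPM per kb) and the lower without core 2 (13.7 against 18.0 CPM per kb) or with no length term (35.3 against 37.6 CPM). The order of the pair was thus not settled. FAR5 measured 1.12, 2.22, 0.155 and 1.12 CPM, highest in core 2, FAR2 had a mean of 0.109 CPM and FAR7 had 0 counts. Of 10 other wax ester synthase loci 8 had 1 model and 5 were at 1 CPM or more in every core. The highest, AT5G12420, stood at 19.6 ± 0.808 CPM (SD, n = 4) and AT5G16350 at 2.62 CPM per kb, against 34.7 CPM per kb for WSD1. The lowest, AT3G49200 and AT5G53380, had means of 0.268 and 0.198 CPM.

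**Figure D4:**
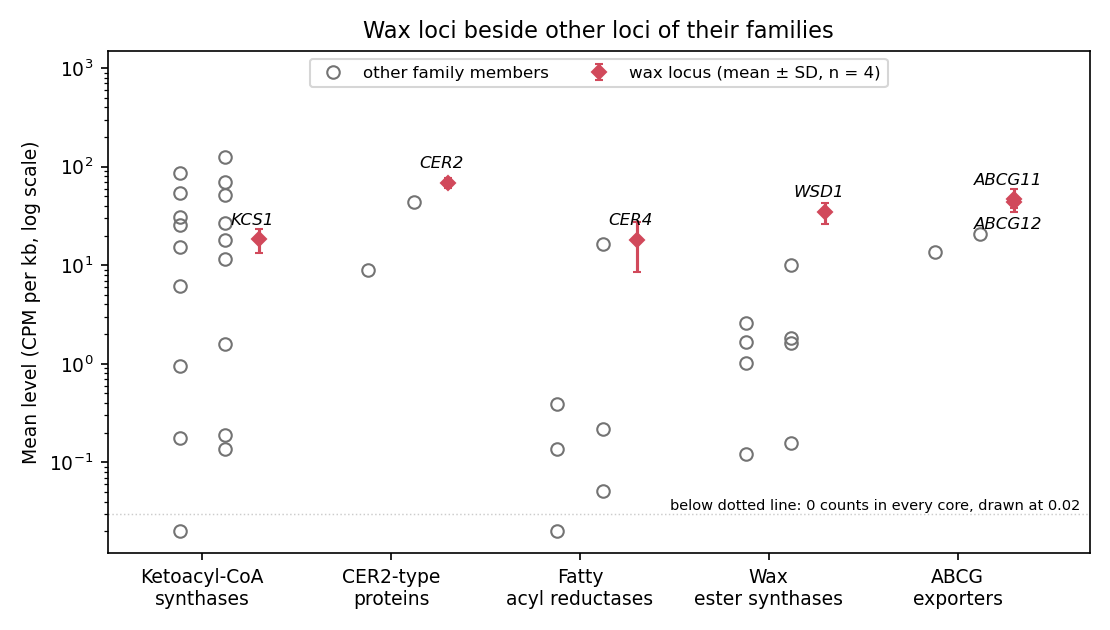
Mean CPM per kb of exon, on a log axis, of 5 wax-locus families, with an open circle per other locus and a filled diamond with SD for each of 6 wax loci; loci with 0 counts are drawn at 0.02. WSD1 at 34.7 CPM per kb lies above the other measured wax ester synthases, CER4 at 18.0 CPM per kb lies beside FAR1 at 16.6 CPM per kb, and KCS1 at 18.4 CPM per kb lies in the middle of its family.

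Regulators of wax and cuticle were expressed at lower levels. Of 14 loci 8 had 1 model, and 7 of these were at 1 CPM or more in every core, and the list had its median at 10.4 CPM per kb. The highest were AT1G55270, at 67.8 ± 7.54 CPM (SD, n = 4), and MYB30, a MYB factor that activates genes of very-long-chain fatty acid synthesis, at 29.9 ± 7.39 CPM. SHN2 and WIN1, AP2-type activators of cuticle genes, were the lowest, at 5.70 ± 2.24 and 0.778 ± 0.448 CPM. Per kb, AT1G55270 and MYB30 stood at 34.9 and 15.4 CPM, and SHN2 and WIN1 at 6.12 and 0.665 CPM. MYB96 has several models and was not measured.

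Cutin genes, which build the polyester of the cuticle, differed from the 8 wax loci in which core was extreme. Of 13 loci 11 had 1 model, and the list median was 30.1 CPM per kb. All 11 were called beyond counting noise, against 64.0% of all tested loci and 78.4% of those within the mean CPM range of the wax loci. They were led by LTL1 and DCR, at 345 and 136 CPM per kb. GPAT6 and CYP77A6 were the lowest, at 19.0 and 17.6 CPM per kb, or 42.1 ± 14.7 and 36.8 ± 7.23 CPM (SD, n = 4). Core 3 was the highest for 10 of 11 cutin loci and core 2 the lowest for 8 of 11. Of the 8 wax loci, cores 2 and 3 were the highest for 3 each and core 4 for 2, and core 1 was the lowest for 5, core 2 for 2 and core 4 for 1. Over all tested loci core 2 was the highest for 27.4% and core 3 for 32.1%, core 1 the lowest for 22.4% and core 2 the lowest for 28.5%. The pattern was not particular to the cutin genes. Of the other wax enzymes and carriers that passed the filter, core 3 was the highest for 4 of 8 and core 2 the lowest for 6 of 8. The other KCS loci gave 9 of 13 and 8 of 13, and the regulators 4 of 7 for each. These counts are descriptions, and differences between the lists were not tested.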

How the data were processed

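The deposited values are raw counts, 1 row per transcript model and 1 column per library, which the authors did not normalize. Per the labels' protocols, ribosomal RNA was removed with a kit for plant leaves and strand-specific libraries were sequenced on an Ion Proton. Torrent Suite 4.0.2, HTSeq and TAIR10 are named in the submitters' processing notes. The aligner and the options for counting were not given in the sources used here. Both the members and the lists were chosen with earlier results of these data known.

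The 40745 rows were grouped into 32678 loci, of which 26795 have 1 model and 5883 have several. Loci with several models hold 1.67 ± 0.0409% of the counts (SD, n = 4) and were not measured. Names, exon lengths, coordinates and sequences come from the RefSeq annotation of TAIR10.1, in which 31912 loci matched, all 10 wax loci among them. No 50-base stretch of their exons occurs elsewhere in that genome. CPM were computed on 26516 nuclear loci with 1 model after TMM scaling, from 5346608 to 7342880 counts per library, and divided by all exon bases of a locus in kb. Intervals and floors cover counting error only.

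Loci passing edgeR's filter for 1 group (minimum count 10) were tested for Poisson heterogeneity by chi-square, and by edgeR's robust quasi-likelihood fit of an intercept against loci of like level. The prior degrees of freedom in the F test were set to the largest over loci, a choice made after a first run, because in simulated data the locus-specific ones recovered none of the changed loci. The simulated libraries differed less than the real ones, whose common biological coefficient of variation was 0.211. The simulation therefore does not show how either version performs at the spread of these data. With the filter, both versions called 0 loci. With no filter, calls went from 0 to 431. Pair ratios used a prior count of 0.5. P-values were adjusted by Benjamini-Hochberg over all tested loci.

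The 10 wax loci are named, with the 2 highest and 2 lowest loci per kb of each list and the 5 loci most like the wax locus of largest SD. KCS5, CER26, KCR1, ABCG13, CYP86A1, GPAT5 and MYB96 were named outside this rule, after their values were seen. The alternatives were DESeq2 size factors, total counts, no filter, all nuclear loci with models summed, no length term, a prior count of 2 and each core left out. A non-robust prior and the length of the first model were added after seeing the data. R 4.3.3, edgeR 4.0.16, DESeq2 1.42.0 and Python 3.11.15 were used.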

Additional observations from a re-analysis of the deposited data

Results flagged for a closer look

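Among 69 values checked (the 8 wax loci, the 10 pair ratios and the other named loci with counts that vary), 7 had 1 library set apart from the other 3 by a gap beyond Dixon's 95% critical value for 4 samples. LTPG1 was low in core 2, at 281.6 CPM against 408 to 409 CPM in the others. PDF1 was low in the same core, at 678 CPM against 1085 to 1139 CPM. PDF2 was high in core 3, at 115 CPM against 82.3 to 87.6 CPM. The other 4 rest on a few counts: KCS7 at 0.375 CPM in core 4, AT3G49200 at 0.592 CPM and CASP1 at 0.444 CPM in core 2, and RHD6 at 0.155 CPM in core 3. None of the 8 wax loci and none of the 10 pair ratios had such a gap. Chance flags about 1 in 20 groups.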

How the results depend on the processing

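Over all alternatives, 298 values kept their direction and their side of the threshold, 14 moved, 3 lost a call, 1 gained a call and 4 changed sign. With no filter on low counts edgeR called 1 wax locus, CER4, and 431 loci beyond those of like level, against 0 and 0. With locus-specific prior degrees of freedom and no filter it called 0 loci. With no length term the median level of the 8 wax loci (mean of the 4 library medians) was 112.9 CPM, against 45.8 CPM per kb, and the log2 ratios were 0.38 for ABCG11 over ABCG12, 0.34 for CER2 over CER26, -0.62 for CER2 over CER3 and 0.22 for CER3 over ABCG11, as the length term is what these lack. Leaving out each core in turn gave -0.10 to 0.13 for CER2 over CER3 and -0.10 to 0.46 for KCS1 over CER4, and the length of the first model gave -0.021 for KCS1 over CER4. Loci called beyond counting noise numbered 6475 to 7526 with 3 cores and 8195 to 8482 under the other settings, against 8171. No paired analysis was possible because all 4 libraries belong to 1 group. Depth limits the loci near 0 counts, and the deposited counting limits KCS6 and CER1.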
